A study of Danio rerio with 12 samples.

Results

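The red blood cell genes described here are the embryonic haemoglobin genes hbae1, hbae3, hbbe1.1, hbbe1.2 and hbbe2, with alas2, slc4a1a and gata1a. They were taken by their deposited ZFIN gene symbol from a list of 10 symbols, of which 8 had a row among the 32674 gene rows of each table. The remaining symbols, hbae5 and hbbe1.3, were not the deposited symbol of any row. A row that a gene names table pairs with hbae5 is described below and is not counted among the 8. All 8 genes passed the minimum for testing, a mean of at least 10 scaled counts over the 12 libraries.

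RNA-seq was done on whole zebrafish embryos (EK strain), collected 5 days after fertilisation, in 12 pools of 5 embryos. Their parents had eaten a diet with methylmercury (MeHg), an organic form of mercury that accumulates in fish, over their whole life. The 4 parental diets held 0 ppm (control), 1 ppm, 3 ppm or 10 ppm MeHg, and each diet had 3 pools of its offspring. The embryos themselves are the next generation, and nothing in the labels says that they were given MeHg directly or whether pools that share a diet had different parents, so each p-value below reflects only how these pools varied.

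Haemoglobin carries oxygen as a tetramer of a pair of alpha-type and a pair of beta-type globin chains, each holding a haem group. Vertebrates make embryonic globins first and adult globins later, and at this larval age the circulating red cells of zebrafish still carry the embryonic kind. Haem is built in a chain of enzymes that begins, in red cells, with the aminolevulinate synthase alas2. The anion exchanger slc4a1a, also called band 3, is a main protein of the red cell membrane, and gata1a is the transcription factor that drives the erythroid programme. Zebrafish mutants in alas2, slc4a1a or gata1a are anaemic. In RNA from whole embryos, fewer red cells and less RNA per red cell cannot be told apart.

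Both deposited measures are used. A scaled count is the number of fragments assigned to a gene divided by 1 size factor for the library, and FPKM is fragments scaled to transcript length and library depth, the unit used here wherever levels of different genes are set side by side. The libraries held 5.63 to 11.8 M (mega) fragments, as estimated from the steps of the scaled counts, and 18970 to 20071 genes had at least 1 FPKM. Any pair of libraries correlated at r = 0.926 to 0.980 over genes.

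The levels of these genes were in the same order in nearly every library. By mean FPKM over 12 libraries, hbae3 was highest at 1582 ± 385 (SD), followed by hbbe1.1 at 1021 ± 340, hbbe2 at 401 ± 89.2 and hbbe1.2 at 165 ± 70.1. These ranked 147, 191, 335 and 596 among all 32674 rows. The membrane gene slc4a1a had 29.0 ± 10.9 FPKM, the globin gene hbae1 17.5 ± 7.88, alas2 10.7 ± 3.38 and gata1a 1.66 ± 0.723. The first 5 places and the last place were the same in all 12 libraries, while hbae1 and alas2 exchanged places 6 and 7 in 1 ppm replicate 2 and 10 ppm replicate 2. The ranges of hbae3 (980.5 to 2193 FPKM) and hbbe1.1 (529 to 1458 FPKM) overlapped between libraries, although hbae3 was above hbbe1.1 within each one.

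The alpha-type globin hbae3 (ENSDARG00000079305) was the most abundant member. It had 3355, 2656 and 3775 scaled counts in the 3 control pools, 2750, 4032 and 4665 at 1 ppm, 3988, 2834 and 2892 at 3 ppm, and 2580, 1942 and 4510 at 10 ppm. Every diet overlapped the control range, and the pools of 10 ppm held both the lowest value of all 12 and the second highest. Diet means were 3262 ± 565, 3816 ± 976, 3238 ± 650.3 and 3011 ± 1337 scaled counts (SD, n = 3 pools each).

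The second alpha-type member, hbae1 (ENSDARG00000089475), is a low-level gene that the gene names table calls hbae1.1. Control pools had 36.0, 35.7 and 45.7 scaled counts, 1 ppm pools 23.8, 22.0 and 52.7, 3 ppm pools 36.1, 29.0 and 33.3, and 10 ppm pools 11.6, 12.1 and 66.0. The lowest, next lowest and highest libraries of all 12 were therefore the 3 pools of 10 ppm, whose mean was 29.9 ± 31.3 scaled counts against 39.1 ± 5.70 in the controls (SD, n = 3).

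Among the beta-type genes, hbbe1.1 (ENSDARG00000089963) had 2324, 1579 and 3143 scaled counts in control pools, 2106, 2789 and 3130 at 1 ppm, 2805, 1982 and 1288 at 3 ppm, and 1485, 1110 and 3345 at 10 ppm. The highest and the lowest library were again both from 10 ppm. Its neighbour hbbe1.2 (ENSDARG00000090689) had 378, 218 and 459 scaled counts in controls, 298, 256 and 373 at 1 ppm, 581, 395 and 366 at 3 ppm, and 226, 130.0 and 678 at 10 ppm. The 10 ppm pools of hbbe1.2 spanned 5.21-fold, which was also its range over all 12 libraries. The gene hbbe2 (ENSDARG00000045143) varied least, with 860.2, 804 and 1053 scaled counts in controls, 855, 1004 and 1283 at 1 ppm, 1117, 812 and 754 at 3 ppm, and 655, 577 and 1091 at 10 ppm. Its highest library had 2.22 times the count of its lowest.

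The haem enzyme gene alas2 (ENSDARG00000038643) had 126, 132 and 195 scaled counts in control pools, 131, 154 and 195 at 1 ppm, 214, 115 and 121 at 3 ppm, and 57.9, 100.1 and 176 at 10 ppm. 10 ppm replicates 1 and 2 were below every other library, and replicate 3 lay inside the control range. For the anion exchanger slc4a1a (ENSDARG00000012881) the values were 427, 385 and 570.0 in controls, 411, 351 and 738 at 1 ppm, 834, 363 and 379 at 3 ppm, and 207, 361 and 678 at 10 ppm. Its highest library was 3 ppm replicate 1 and its lowest 10 ppm replicate 1, a 4.04-fold range.

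The transcription factor gata1a (ENSDARG00000013477) had the lowest level, with 9 to 49 fragments per library. Its scaled counts were 7.91, 11.2 and 21.5 in controls, 11.1, 12.7 and 22.2 at 1 ppm, 31.0, 15.5 and 10.7 at 3 ppm, and 11.6, 15.3 and 27.9 at 10 ppm. The diets overlapped throughout. Its scaled count per FPKM varied 1.88-fold between libraries, against 1.42-fold for slc4a1a and 1.02 to 1.13-fold for the other 6 genes, so the deposited measures are less interchangeable for gata1a.

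**Figure D1:**
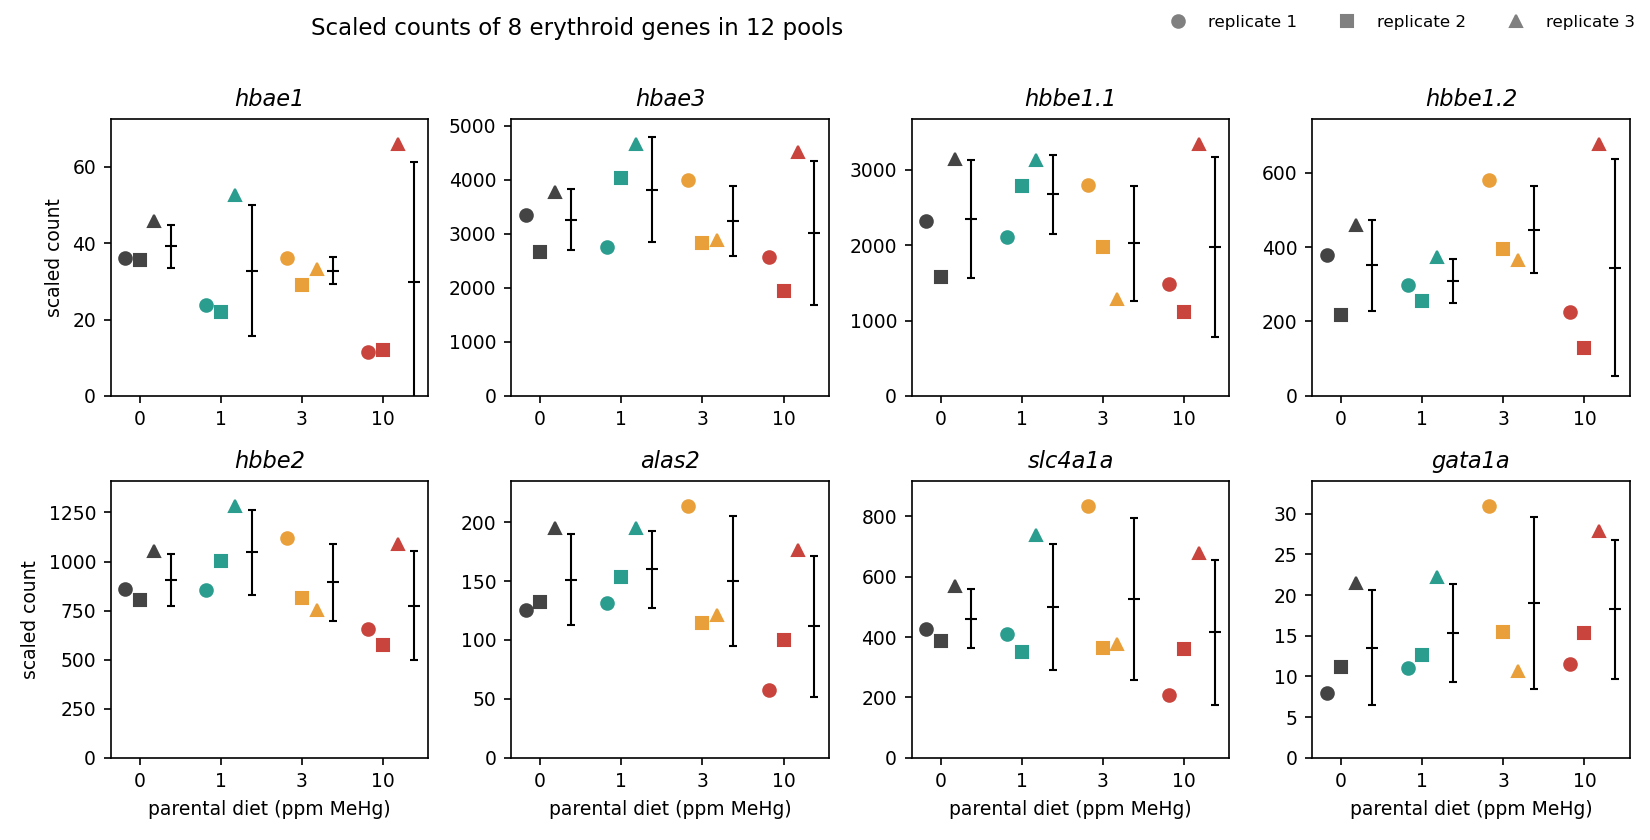
Scaled count (y axis, linear from 0) of each of the 8 genes in each pool by parental diet in ppm MeHg (x axis), with marker shape for the replicate number and the black bar for the diet mean ± SD of 3 pools (the bar of hbae1 at 10 ppm is cut at 0). The same pool of each diet is highest in all 8 panels, and the SD is largest at 10 ppm in 6 of them.

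The effect of diet was tested with limma on log2(scaled count + 1), in 1 fit over the 12 libraries and 18390 genes with Benjamini-Hochberg adjustment, two-sided. None of the 8 genes passed an adjusted p of 0.05 in any of 6 comparisons: each diet against the control, 10 ppm against 3 ppm, an F-test of any difference between diets, and a trend over the rank of the diet. The share of all tested genes that passed was 0% at 1 ppm, 0.0163% at 3 ppm, 0% at 10 ppm, 0.0163% for 10 ppm against 3 ppm, 0.0163% for any difference and 0.0218% for the trend. An unadjusted p under 0.05 was also reached by 0 of the 8 genes in each comparison, where 1.96%, 10.4%, 5.71%, 3.77%, 8.59% and 10.3% of tested genes reached it. limma-voom likewise called 0 of the 8.

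At 1 ppm, 6 of the 8 log2 fold changes were above 0 and the median was 0.15, against -0.01 over all tested genes. The globins hbae3 and hbbe2 differed from control by 0.21 (SE 0.28, 95% interval -0.41 to 0.82) and 0.20 (SE 0.23, -0.30 to 0.70), and both had an adjusted p of 1.00. At 3 ppm, 3 were above 0 and 5 below, with a median of -0.02. The most positive were gata1a at 0.44 (95% interval -0.53 to 1.42, adjusted p = 0.730) and hbbe1.2 at 0.38 (-0.74 to 1.51, adjusted p = 0.805).

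At 10 ppm, 7 of the 8 log2 fold changes were below 0 and the median was -0.30, against 0.01 over all tested genes. The change of hbae1 was -0.84 (SE 0.54, 95% interval -2.004 to 0.32, adjusted p = 0.852), with 2 of 3 pools under all controls and the third above them. The haem enzyme alas2 differed by -0.55 (SE 0.36, -1.33 to 0.23, adjusted p = 0.856), again with 2 of 3 pools under all controls. The exception was gata1a at 0.43 (-0.55 to 1.41, adjusted p = 0.892). Intervals were narrowest for hbbe2, where the 10 ppm difference was -0.27 and the interval -0.77 to 0.23. These intervals are not adjusted for the number of genes tested. They do not show how large a difference could have been called with 3 pools a diet.

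**Figure D2:**
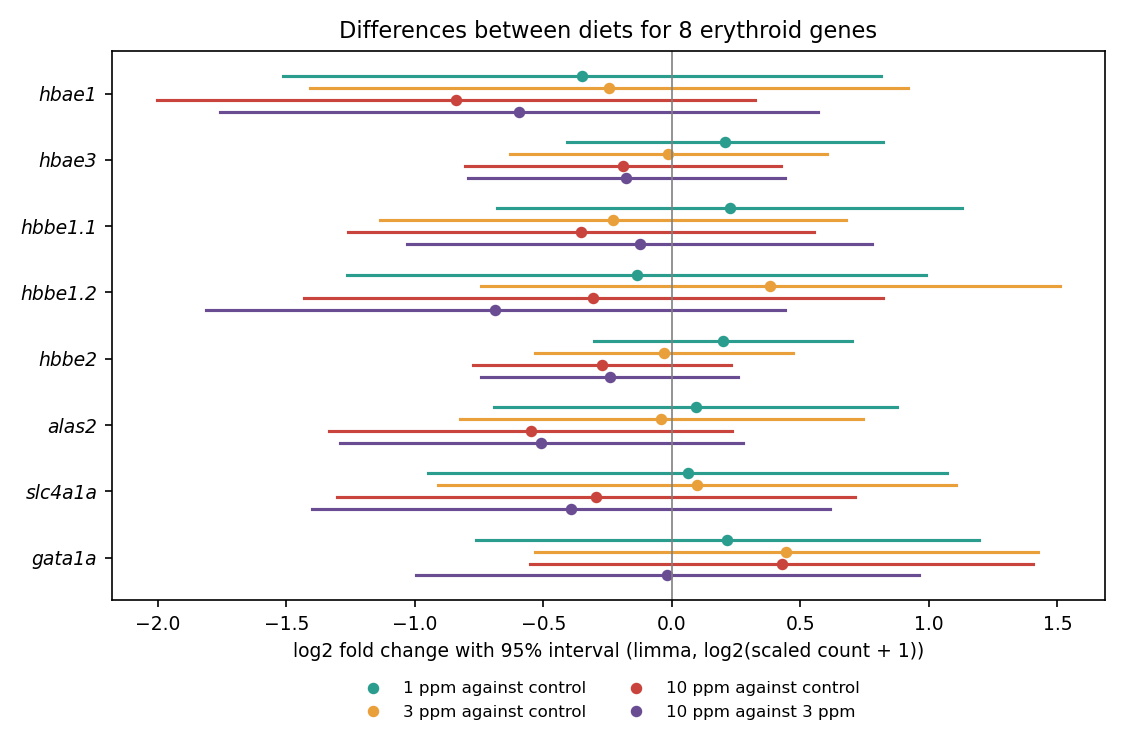
Log2 fold change from limma (x axis) with its 95% interval for each gene (y axis) in 4 diet comparisons, by colour. Every interval crosses 0, and the intervals of hbae1 and hbbe1.2 are the widest while those of hbbe2 are the narrowest.

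The 10 ppm against 3 ppm comparison gave values below 0 for 8 of 8 genes, with a median of -0.32 and the smallest unadjusted p at 0.183 for alas2. The genes vary together between pools, as shown next, so 8 genes on 1 side are not 8 separate observations, and this comparison shares its 10 ppm pools with the preceding one. No gene had pools of a diet that lay wholly above or below the control pools, while 6.03% of tested genes did so at 1 ppm, 17.7% at 3 ppm and 10.4% at 10 ppm. Between 10 ppm and 3 ppm, 0 of the 8 and 11% of tested genes did not overlap. Leaving out 10 ppm replicate 3 made the 10 ppm value of hbae1 -1.63 and that of alas2 -0.95, and leaving out 10 ppm replicate 1 made them -0.43 and -0.15, in each case without a call.

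The SD of the 4 diet means of each gene was 0.16 to 0.35 on the log2 scale. A mean of 3 pools varies less than a single pool even without a diet effect. This SD is therefore not set against the SD between single pools. The SD between pools of a diet, on the log2 scale, was 0.34 to 0.78 for the 8 genes with a median of 0.60, against a median of 0.26 over all tested genes. It was 0.78 for hbae1, 0.70 for hbbe1.2, 0.64 for gata1a, 0.63 for slc4a1a, 0.58 for hbbe1.1, 0.52 for alas2, 0.41 for hbae3 and 0.34 for hbbe2. For hbae1, 98.1% of tested genes had an SD as small or smaller, and for hbbe2 67.6% did. Among genes of a like level, within 0.5 log2 units, between 85.4% (hbae3) and 99.1% (hbbe1.2) had a smaller SD. The share of variance that lay between diets was 8.32% for slc4a1a to 27.0% for hbbe2, against a median of 29.6% over all tested genes. With 3 pools in each of 4 diets, much of such a share arises without any diet effect. It is therefore not the variance due to diet.

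**Figure D3:**
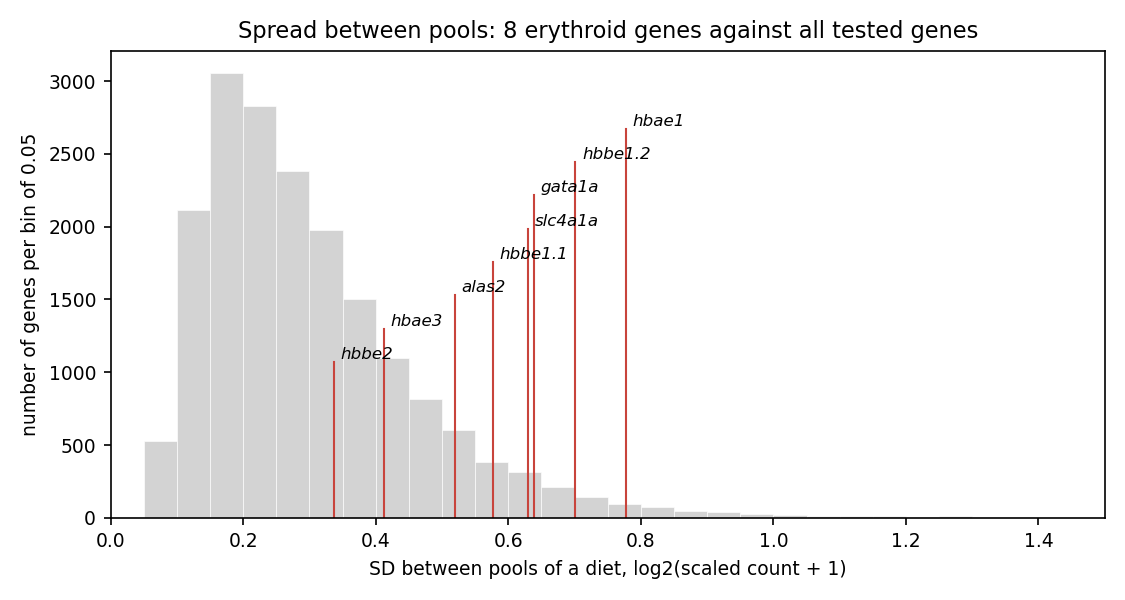
Number of tested genes (y axis, bins of 0.05) by the SD between pools of the same diet in log2(scaled count + 1) (x axis), in grey, with a red line at the SD of each of the 8 genes (line heights are staggered only for legibility). All 8 lines lie right of the grey median of 0.26, from hbbe2 at 0.34 to hbae1 at 0.78.

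The spread was shared by the genes. In each diet a single pool had the highest value for 8 of 8 genes: control replicate 3, 1 ppm replicate 3, 3 ppm replicate 1 and 10 ppm replicate 3. Relative to each gene's own mean over 12 libraries, the median over the genes was 0.47 log2 units higher in control replicate 3, 0.53 in 1 ppm replicate 3, 0.53 in 3 ppm replicate 1 and 0.63 in 10 ppm replicate 3. The other 10 ppm pools stood at medians of -0.53 (replicate 1) and -0.67 (replicate 2), and each had 7 of the 8 genes among their 4 lowest libraries. The exception in both was gata1a, at -0.37 in replicate 1 and 0.01 in replicate 2. How many of all tested genes also peaked in the same pools was not counted. The first principal component, the main axis of variation over all tested genes, held 34.3% of variance. Control replicate 3 and 1 ppm replicate 3 scored highest on it, at 37.2 and 65.6. The scores of 3 ppm replicate 1 and 10 ppm replicate 3 were -13.4 and -19.6. The library of 1 ppm replicate 3 was also the smallest, at 5.63 M fragments. The part of these differences in the erythroid peaks was not tested.

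**Figure D4:**
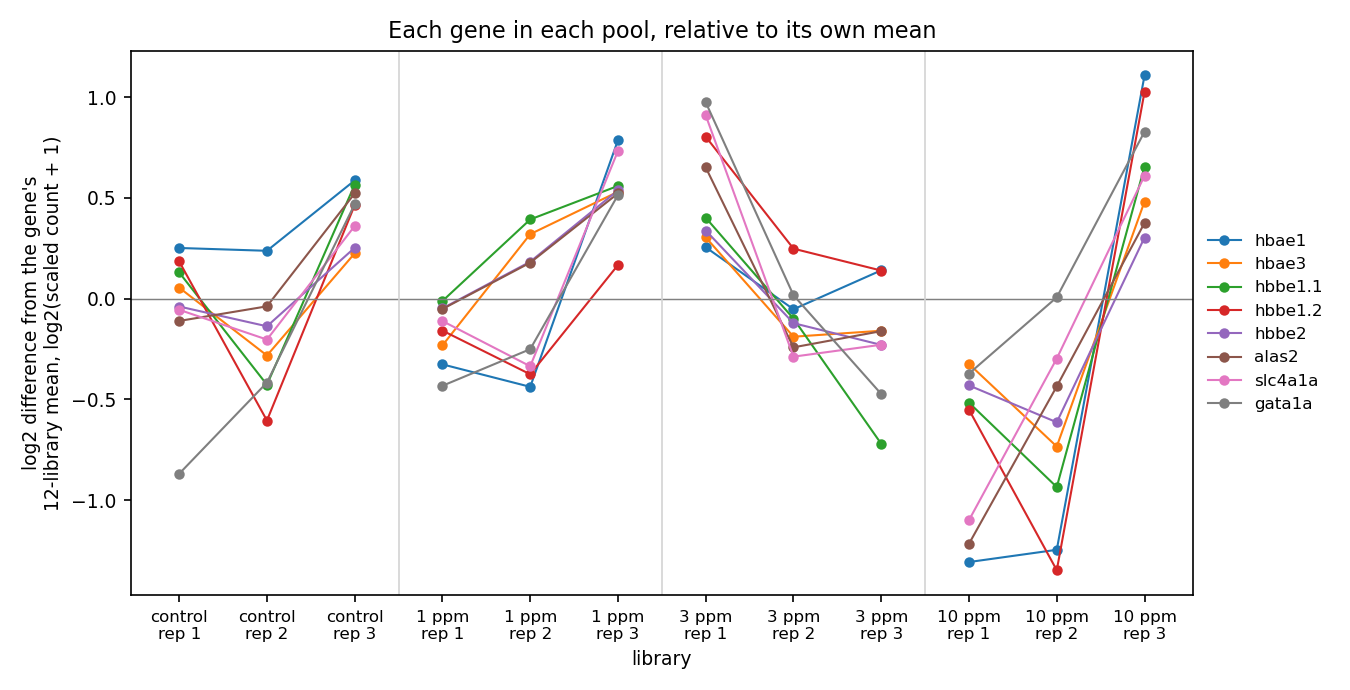
Difference of each gene from its own 12-library mean in log2(scaled count + 1) (y axis) for each library (x axis), with 1 colour a gene and lines joining the points of a gene within a diet only to make them easier to follow. All 8 genes peak in the same pool of each diet, and 10 ppm replicates 1 and 2 are each among the 4 lowest libraries for 7 of the 8 genes.

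Over the 12 libraries, Pearson's r between pairs of these genes ranged from 0.469 to 0.954 over 28 pairs with a median of 0.759, and Spearman's rho from 0.490 to 0.937. After the diet means were removed, r ranged from 0.626 to 0.958 with a median of 0.829. By permutation tests adjusted over the 28 pairs, 24 had an adjusted p under 0.05 for r and 20 for rho. The 4 that missed it for r were gata1a with hbae1, hbae3, hbbe1.1 and hbbe1.2. These tests do not set a pair against other genes. Over all 18390 tested genes, the 95th percentile of r was 0.585 with alas2, 0.595 with slc4a1a and 0.568 with gata1a. For gata1a, hbae1, hbae3 and hbbe1.2 lay under that value, while hbbe1.1, hbbe2, alas2 and slc4a1a lay above it. The pairs share libraries and the size factors of those libraries. Leaving out the 2 libraries farthest from the median of the first gene gave r of 0.456 to 0.925.

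The alpha-type hbae3 and the beta-type hbbe2, which lie in different globin gene clusters, had r = 0.954 and rho = 0.916 (permutation p = 2e-05 and 0.00012, adjusted p = 0.00028 and 0.00112), and r = 0.910 without 2 libraries. The haem enzyme alas2 and the anion exchanger slc4a1a had r = 0.920 and rho = 0.818 (permutation p = 7e-05 and 0.00207, adjusted p = 0.00049 and 0.00753), and r = 0.834 without 2 libraries. For slc4a1a and gata1a, r was 0.761 (permutation p = 0.00355, adjusted p = 0.00689) while rho was 0.497 (permutation p = 0.104, adjusted p = 0.108).

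The 5 globin genes of the list together made up 1847 to 4360 FPKM per library, which was 0.172% to 0.407% of all FPKM. The sums were 3095, 2455 and 3758 in control pools, 2795, 3692 and 4360 at 1 ppm, 4211, 2876 and 2491 at 3 ppm, and 2347, 1847 and 4307 at 10 ppm. They overlapped between all diets, with means of 3103 ± 651, 3616 ± 785, 3193 ± 903 and 2834 ± 1300 FPKM (SD, n = 3). While the sums varied, the ratio of alpha-type (hbae1 and hbae3) to beta-type (hbbe1.1, hbbe1.2 and hbbe2) FPKM stayed between 0.866 and 1.28. The sum and the ratio leave out further globin rows described below, among them a row named HBE1 (mean 244 FPKM), which was above hbbe1.2, and the hbae1.2 row (mean 58.2 FPKM), which was above hbae1. The diet means of the ratio were 0.987 ± 0.114, 0.997 ± 0.0864, 1.06 ± 0.195 and 1.08 ± 0.123 (SD, n = 3).

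Within the hbbe1 pair, the share of hbbe1.2 was 14.0%, 12.1% and 12.7% in control pools, 12.4%, 8.41% and 10.7% at 1 ppm, 17.2%, 16.6% and 22.1% at 3 ppm, and 13.2%, 10.5% and 16.8% at 10 ppm. The 3 ppm pools lay above all control and 1 ppm pools and overlapped the 10 ppm pools in 1 library. This was picked out after the values were seen and has no test. The hbbe1 genes are near-identical copies, and how the authors' counting divided fragments between them is not given in the sources used here. All values of the 8 genes were whole multiples of the library's step, within 0.02 steps, in 12 of 12 libraries.

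**Figure D5:**
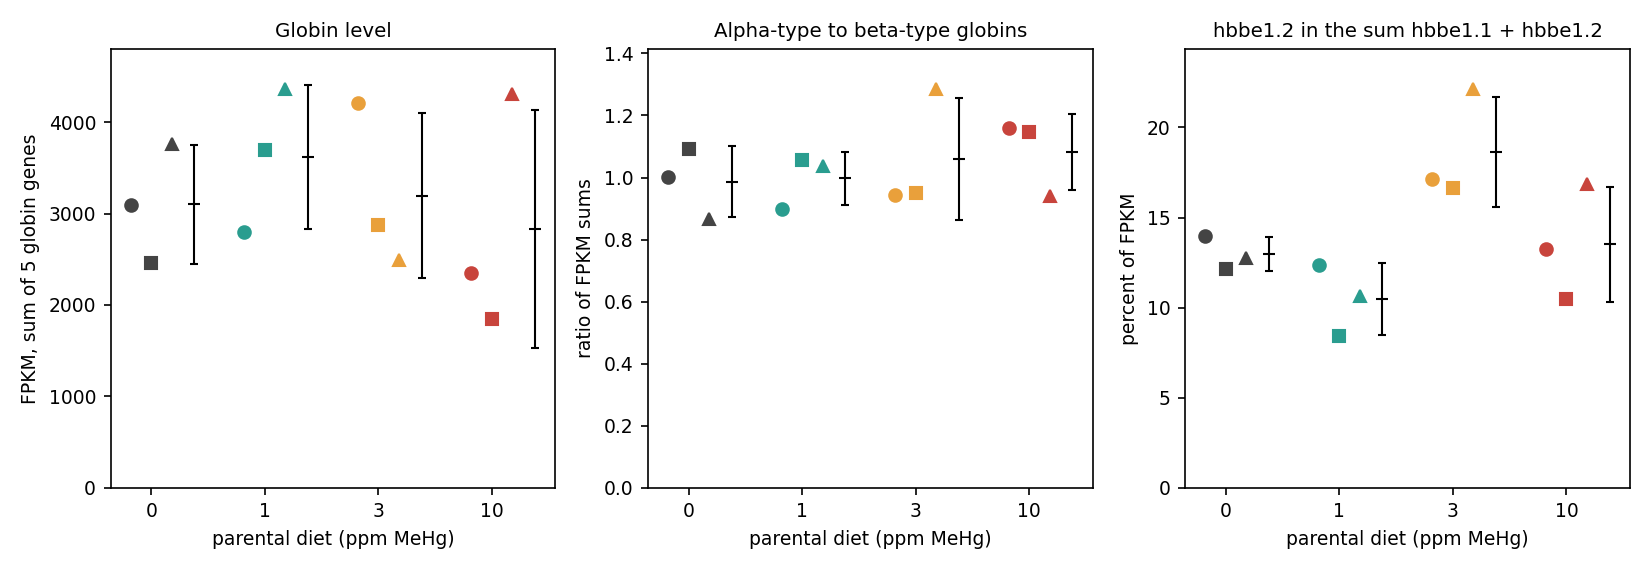
Summed FPKM of 5 globin genes (left), ratio of alpha-type to beta-type globin FPKM (middle) and share of hbbe1.2 in the FPKM of hbbe1.1 and hbbe1.2 in percent (right), all by parental diet in ppm MeHg (x axes), with circles, squares and triangles for replicates 1, 2 and 3 and black bars for the mean ± SD of 3 pools. The sum ranges from 1847 to 4360 FPKM, the ratio from 0.866 to 1.28, and the 3 ppm share from 16.6% to 22.1%.

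Further globin rows lay outside the 8 genes. In RefSeq's GRCz12tu annotation the globin genes form 2 clusters, with hbbe1.1, hbbe1.2, hbbe1.3, hbae3 and 3 hbae1 copies beside the adult globins in 1, and hbae4, hbae5, hbbe2 and hbbe3 in the other. The gene names table pairs hbae5 with a row deposited as hbz, which had a mean of 12.1 scaled counts, from 3.31 in 10 ppm replicate 1 to 22.8 in 3 ppm replicate 1, and log2 fold changes of 0.77, 0.53 and 0.14 at 1, 3 and 10 ppm (adjusted p = 1.00, 0.722 and 0.973). The same table gives hbae1.2 and hbae1.3 to 2 rows deposited as si:ch211-5k11.2. The hbae1.2 row (ENSDARG00000088330) ranged from 22.3 scaled counts in 10 ppm replicate 1 to 336 in 10 ppm replicate 3, and the hbae1.3 row (ENSDARG00000089124) from 5.65 in 10 ppm replicate 2 to 73.0 in 3 ppm replicate 1. These libraries were also among the lowest and highest for most of the 8 genes.

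The adult globin rows that were matched, hbaa2 (deposited as si:ch211-5k11.6), hbba1 (ba1) and hbba2 (zgc:92880), were listed at 0 in most libraries. Their means were 0.0709, 0.145 and 0.170 scaled counts, and hbbe3 had 0.101. No row was matched to the adult globin symbols hbaa1 and hbba1.1, so the adult genes were not all measured. The hbae4 row (zgc:163057) had a mean of 8.43 scaled counts, under the minimum for testing. All 8 genes of the main list were detected in 12 of 12 libraries. Of globins known from other tissues, the brain globin ngb had r = -0.62 with alas2 over 12 libraries, cytoglobin cygb2 -0.56 and muscle myoglobin mb 0.26.

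By likeness over the 12 libraries, the 5 named genes most like the mean of the 5 globin members were the row named HBE1 by the gene names table (ENSDARG00000087390, r = 0.967), the haem enzyme gene urod (0.925), hsdl2 (0.899), galns (0.896) and upb1 (0.893). The median r of all 18390 tested genes with that mean was -0.01, the 95th percentile 0.574 and the 99th 0.708. The HBE1 row has no deposited symbol and the table gives that name to several rows, hbbe2 among them, so which globin gene it is, hbbe1.3 included, is not settled by the files. It had 510, 327 and 680 scaled counts in control pools, 425, 489 and 732 at 1 ppm, 898, 589 and 416 at 3 ppm, and 271, 192 and 925 at 10 ppm. Its mean level was 244 FPKM, between hbbe2 and hbbe1.2, and its log2 fold changes were 0.14, 0.32 and -0.41 (adjusted p = 1.00, 0.850 and 0.906).

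For alas2 the nearest genes were slc4a1a (r = 0.920), nup210 (0.909), agfg1a (0.905), dnmt1 (0.885), the maintenance DNA methyltransferase, and nup133 (0.884). For slc4a1a they were si:dkey-162b3.5 (0.944), the mitochondrial transporter abcb10 (0.920), alas2 (0.920), ap1b1 (0.908) and eif4g2a (0.903). For gata1a they were slc2a15a (0.880), fap (0.864), si:ch1073-184j22.2 (0.852), tnc (0.845) and gpd1b (0.842), none of them on an erythroid list. Over all tested genes, the 99th percentile of r was 0.733 with alas2, 0.747 with slc4a1a and 0.704 with gata1a. These values describe 12 libraries that share their depth and size factors.

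The wider pathway was followed in 97 further tested genes: 5 other globins, 15 of haem synthesis, 12 of iron handling, 15 of the red cell membrane and skeleton, 18 erythroid transcription genes, 6 of erythropoietin signalling, 11 red cell enzymes and 15 of the hypoxia response. None was called by limma or limma-voom in any diet comparison or in the trend. An unadjusted p under 0.05 was reached by 2, 6, 4, 4 and 7 at 1 ppm, 3 ppm, 10 ppm, 10 ppm against 3 ppm and in the trend. Over all tested genes the shares at that threshold were 1.96%, 10.4%, 5.71%, 3.77% and 10.3%. Pools of a diet lay wholly on 1 side of the control pools for 5 of the 97 at 1 ppm, 14 at 3 ppm and 6 at 10 ppm, and 10 did not overlap between 10 ppm and 3 ppm. These counts without overlap stand beside the 6.03%, 17.7%, 10.4% and 11% of all tested genes that did not overlap.

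Of the 15 haem synthesis genes, 10 had a log2 fold change above 0 at 1 ppm and 5 at 3 and at 10 ppm, with medians of 0.08, -0.05 and -0.08. Smallest by the p of any difference were clpxa, a mitochondrial chaperone subunit, at -0.29, 0.35 and 0.20 (adjusted p = 0.567) and snx3, a sorting nexin in transferrin receptor recycling, at 0.25, -0.10 and -0.04 (adjusted p = 0.589). Over the 15 genes, r with alas2 ranged from -0.412 (clpxa) to 0.875 (urod) with a median of 0.350. The 95th percentile of r with alas2 over all tested genes was 0.585. Selected after their values were seen, urod had r = 0.875 with alas2, abcb10 0.835, hmbsb 0.659 and cpox 0.644, while the last enzyme of the chain, fech, had 0.211 and the housekeeping synthase alas1 0.102. The decarboxylase gene urod had 69.4, 52.5 and 84.2 scaled counts in control pools, 62.1, 54.1 and 84.2 at 1 ppm, 78.9, 52.2 and 56.4 at 3 ppm, and 38.02, 37.1 and 73.4 at 10 ppm, so its highest pool of each diet was the same as for the 8 genes. It was singled out with its high r with alas2 known, so this match is not a separate observation.

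Among 12 iron genes the medians were -0.04, 0.21 and 0.05 at 1, 3 and 10 ppm, and the smallest p of any difference belonged to the plasma ferroxidase cp (-0.52, 0.26 and 0.27, adjusted p = 0.483) and the iron transporter slc11a2 (0.27, 0.44 and -0.24, adjusted p = 0.578). Among 15 membrane and skeleton genes the medians were 0.04, 0.01 and 0.07. The glucose transporter slc2a1a had 139, 137 and 126 scaled counts in control pools, 60.4, 144 and 52.7 at 1 ppm, 72.2, 84.4 and 78.4 at 3 ppm, and 76.0, 53.3 and 60.9 at 10 ppm. All 3 ppm and 10 ppm pools were under all controls, with log2 fold changes of -0.77 and -1.08 (adjusted p = 0.437 and 0.598), and its r with alas2 was 0.055. The protein 4.1 family gene epb41l3b had -0.07, 0.55 and 0.33 (adjusted p of any difference 0.558). The Rh glycoprotein rhag, picked after its values were seen, had 1806 to 2485 scaled counts and r = 0.153 with alas2.

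The 18 transcription genes had medians of 0.05, 0.01 and 0.03 at 1, 3 and 10 ppm. The haem-responsive repressor bach1b had 52.7, 39.9 and 40.3 scaled counts in controls, 42.5, 52.4 and 36.3 at 1 ppm, 59.7, 77.3 and 70.0 at 3 ppm, and 63.6, 63.0 and 64.3 at 10 ppm. Its 3 ppm and 10 ppm pools were all above the controls, with log2 fold changes of 0.63 and 0.52 (adjusted p = 0.396 and 0.822). The globin-locus factor nfe2 had 0.42, -0.05 and -0.29 (adjusted p of any difference 0.560). Over the 18 genes, r with alas2 ranged from -0.580 to 0.784 with a median of 0.187. Of the Krüppel-like factors, klf17 had the highest of these at r = 0.784 and klf1 had 0.750, while tal1 had -0.287. These genes were picked after their values were seen.

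All 6 tested erythropoietin signalling genes were below 0 at 1 ppm with a median of -0.31, and 3 of 6 were at 3 and at 10 ppm. Erythropoietin itself (epo) and its receptor (epor) were under the minimum for testing, with means of 8.18 and 0.189 scaled counts. The tested genes therefore do not include the ligand or the receptor. The signal transducer stat5a had -0.72, 0.51 and 0.11 (adjusted p of any difference 0.604) and the kinase jak2b -0.19, -0.00 and -0.13 (adjusted p = 0.735). The medians of the 11 red cell enzymes were -0.03, -0.12 and -0.02, with the glycolytic gpia at -0.06, -0.32 and -0.32 (adjusted p = 0.578) and the carbonic anhydrase cahz at 0.14, -0.40 and -0.33 (adjusted p = 0.603). The medians of the 15 hypoxia genes were -0.03, -0.04 and -0.01, with the hypoxia-inducible factor gene epas1b at -0.27, 0.33 and 0.22 (adjusted p = 0.510) and the vessel growth factor vegfab at 0.26, -0.10 and -0.14 (adjusted p = 0.654).

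Markers of other cell types were detected in the same libraries, as whole embryos contain them. Summed scaled counts were 806 to 1446 for 14 leukocyte rows, 89.6 to 198 for 9 lymphoid rows, 46.6 to 69.0 for 6 thrombocyte rows, 778 to 1136 for 13 endothelial rows, 28202 to 52671 for 10 liver rows, 141128 to 256052 for 6 muscle rows and 53464 to 183941 for 12 exocrine pancreas rows. Only 1 lymphoid row was at 0 in all libraries. None of the tested markers was called in a diet comparison. At 10 ppm, 12 of 13 leukocyte genes were above 0 with a median of 0.26, against 0.01 over all tested genes. The leukocyte sums there were 1446, 977 and 1077 in replicates 1, 2 and 3. At 3 ppm, 12 of 13 endothelial and 10 of 10 liver genes were above 0. Their medians were 0.43 and 0.27, against -0.004 over all tested genes. The 3 ppm endothelial sums were 1136, 975 and 1061 in replicates 1, 2 and 3, above the control sums of 876, 846 and 825. The 3 ppm liver sums were 52671, 41751 and 31761, against 36281, 32628 and 36658 in controls. For the liver, 3 ppm replicate 3 therefore lay below every control pool. Of the 6 muscle genes, 3 were above 0 and 3 below at both doses. The muscle list leaves out the myosin heavy chain genes myhz2, myhc4 and myha, which limma called at 3 ppm. Their log2 fold changes were -14.6, -10.8 and -7.40 (adjusted p = 8.7e-13, 1.3e-11 and 1.2e-05).

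Of 39 relations of alas2, slc4a1a and hbae3 with library measures, the strongest were those of slc4a1a with the digestive enzymes of the pancreas. Its r with the pancreas sum was -0.721 and rho -0.769 (permutation p = 0.00721 and 0.00483, adjusted p = 0.152 and 0.0942, n = 12), and r was -0.795 without 2 libraries. With the trypsin-like gene prss59.2 its r was -0.717 and rho -0.846 (permutation p = 0.00779 and 0.00098, adjusted p = 0.152 and 0.0382). For alas2 and hbae3, r with the pancreas sum was -0.608 and -0.544 (permutation p = 0.0375 and 0.0701, adjusted p = 0.336 for both). All 12 pancreas genes were above 0 in each diet against the control, with medians of 0.31, 0.33 and 0.44, and none was called. Those 3 comparisons share the control pools, whose pancreas sums were 105540, 157399 and 53464. Control replicate 3 was the lowest of all 12 libraries, while control replicate 2 was above every 3 ppm and 10 ppm pool. In each diet, the pool in which the erythroid genes of the main list peaked had the lowest pancreas sum and the lowest prss59.2. These pancreas sums were 53464 (control replicate 3), 59487 (1 ppm replicate 3), 79333 (3 ppm replicate 1) and 113602 (10 ppm replicate 3). This match was picked out after the values were seen and has no test. The part of the pancreas genes in the erythroid values was not tested. With the number of fragments, r was -0.111 for alas2, -0.0735 for slc4a1a and -0.172 for hbae3 (permutation p = 0.730, 0.820 and 0.593).

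A score of 32 circadian clock genes was above 0 in 4 libraries, control replicates 2 and 3 and 1 ppm replicates 2 and 3, so the score and the diet go together. Of the 4 pools in which the 8 genes peaked, 2 had a score above 0 and 2 below. The r of the score was 0.429 with alas2, 0.203 with slc4a1a and 0.348 with hbae3 (permutation p = 0.162, 0.535 and 0.267, adjusted p = 0.422, 0.841 and 0.524). With the score as a covariate, the 3 ppm value of alas2 went from -0.04 to 0.29 and that of hbae3 from -0.01 to 0.20, with no call.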

How the data were processed

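Per the labels, libraries were made from pools of 5 embryos by TruSeq chemistry and sequenced from both ends for 100 bp. The submitters' processing notes name CASAVA 1.8.2, cutadapt, FastQC, TopHat, Cuffnorm and build Zv9, with no role, setting or annotation release given in the sources used here. Deposited by the authors were a scaled signal, fragment counts divided by 1 size factor per library, as read from the values (98.3% to 98.7% were whole multiples of a step, within 0.02 steps), and a table of FPKM made by the authors. Library depth was 5.63 to 11.8 M fragments, which limits precision for low genes such as gata1a.

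The scaled counts were fitted with limma 3.58.1 (R 4.3.3, trend and robust options) as log2(scaled count + 1) for genes with a mean of at least 10. Fold changes on this scale understate those of low genes. Correlations used the same scale with 100000 permutations. The genes and lists were chosen with earlier results of these data known. Named from a list were genes past the threshold, or else the 2 with the smallest p of any difference among diets. A deposited symbol was held by 20495 rows, and the gene names table named 1553 rows without one. Some listed genes were matched to a row with another deposited symbol through that table or a RefSeq synonym. Replicate numbers were not taken as pairs, since only 6 of 18 same-numbered pairs of libraries correlated above 0.1 after removal of diet means. The fit was tested on simulated data. Alternatives covered normalisation, filter, pseudocount, FPKM, voom, library weights, the clock score, a replicate block, dose scale and each library left out.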

Additional observations from a re-analysis of the deposited data

How the results depend on the processing

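None of the 8 erythroid genes was called under any of 25 alternative settings in which it was tested. With a minimum mean of 50, hbae1 and gata1a were not tested, and the dose scales were run for the trend only. Of 926 log2 values of the 8 genes, 863 kept their direction and 63 reversed, 37 of them with a library left out. The smallest adjusted p was 0.340. The cause of these changes was not tested. The replicate block changed no call of the 8 genes and gave 1 gene for the trend, where 4 were called without it. By number, 5 of 12 libraries correlated best with a library of their own number, and r of same-numbered pairs ran from -0.227 to 0.472.

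Reversed values were as follows. With FPKM plus 0.1, gata1a at 1 ppm was -0.0216, hbae3 at 3 ppm 0.0738 and hbbe2 at 3 ppm 0.0525, and with FPKM plus 1 they were -0.0086, 0.0737 and 0.0525. With the clock score as covariate, the 3 ppm values were 0.10 (hbae1), 0.20 (hbae3), 0.19 (hbbe2) and 0.29 (alas2), and hbae3 was 0.0304 at 10 ppm and 0.0031 for the trend. With library weights, 1 ppm gave -0.0023 (alas2), -0.0673 (slc4a1a) and -0.0188 (gata1a), 3 ppm -0.0730 (slc4a1a), 10 ppm 0.0332 (hbae3), 0.16 (hbbe1.2) and 0.0337 (slc4a1a), 10 against 3 ppm 0.0559 (hbae3), 0.16 (hbbe1.1), 0.11 (slc4a1a) and 0.35 (gata1a), and the trend 0.10 (hbbe1.2) and 0.0086 (slc4a1a). With limma-voom on recovered fragments, chosen after seeing the data, gata1a at 10 against 3 ppm was 0.0921.

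With 1 library left out, values at 1 ppm ranged from -0.0342 to 0.46 (hbbe1.1), -0.45 to 0.0878 (hbbe1.2), -0.0609 to 0.29 (alas2), -0.26 to 0.28 (slc4a1a) and -0.0825 to 0.59 (gata1a). At 3 ppm they ranged from -0.17 to 0.10 (hbae3), -0.50 to 0.0615 (hbbe1.1), -0.20 to 0.0837 (hbbe2), -0.33 to 0.16 (alas2) and -0.29 to 0.31 (slc4a1a). At 10 ppm they ranged from -0.53 to 0.0795 (hbae3), -0.96 to 0.22 (hbbe1.2) and -0.73 to 0.12 (slc4a1a). For 10 against 3 ppm they ranged from -0.51 to 0.0933 (hbae3), -0.59 to 0.21 (hbbe1.1), -0.83 to 0.0254 (slc4a1a) and -0.36 to 0.38 (gata1a). For the trend they ranged from -0.16 to 6e-04 (hbae3), -0.18 to 0.13 (hbbe1.2) and -0.18 to 0.0413 (slc4a1a).

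Over all genes, the trend called 4, and 0 with no minimum, a minimum of 50, limma-voom on scaled counts, the clock score, dose in ppm or log2(ppm + 1), 1 with either FPKM setting and 243 with library weights. The 10 ppm comparison called 0, but 1 with FPKM plus 0.1, FPKM plus 1 or the clock score and 38 with weights. The 3 ppm comparison called 3, but 9 with the clock score and 238 with weights, and any difference called 3, but 5 and 24. Among listed genes, weights added 1 at 3 ppm (bach1b, 0.78, adjusted p = 0.0448) and 1 for the trend (slc2a1a, -0.35 per rank, adjusted p = 0.0421). With 1 library left out, calls ranged from 3 to 17 at 3 ppm, 0 to 41 at 10 ppm, 3 to 5 for 10 against 3 ppm, 3 to 9 for any difference and 0 to 146 for the trend, the highest counts other than for 10 against 3 ppm being those without control replicate 1. Planned count models on recovered fragments were not run, because a part of the values were not whole multiples of a step. Fragment numbers are therefore estimates, and the unplanned limma-voom setting on recovered fragments, which was run, rests on them.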

Other observations

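The hbae1.2 row (ENSDARG00000088330) had 22.3, 33.1 and 336 scaled counts in the 10 ppm pools, and 63.3, 159 and 238 in the control pools. It had 48.5, 33.8 and 85.4 at 1 ppm and 226, 97.3 and 69.4 at 3 ppm. Its FPKM spanned 14.1-fold over the libraries, against 13.1-fold for the hbae1.3 row, 5.33-fold for hbae1, 4.77-fold for hbbe1.2 and 2.24-fold for hbae3 of the same cluster.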
